A study of Arabidopsis thaliana with 5 samples.

Results

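The loci described here are AT5G35935, AT5G26270, AT2G05642 and MRD1 (AT1G53480), 4 of the 33602 Arabidopsis thaliana loci measured, which are represented by 6 transcript models. They were chosen by their reads in sorted root nuclei, low in wild type and higher in the smr1 mutant. Their difference between the genotypes is therefore the value that chose them. It is given as a description, and no test of it is read as a result. The working name given to the set was loci nearly silent in Col-0 nuclei. The levels bore it out for AT2G05642, with no read in either Col-0 library, and nearly so, per length, for AT5G35935, but per length not for AT5G26270 or MRD1, which stood at moderate levels in Col-0. In reads alone MRD1 was lower in Col-0 than AT5G35935, whose model is much longer.

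RNA was sequenced from nuclei of root tips of Col-0, the common laboratory wild type, and of smr1, a line mutant for SMR1. SMR1, also called LGO (loss of giant cells from organs), encodes a cyclin-dependent kinase inhibitor known for promoting endoreplication, the rounds of DNA replication without division by which plant cells become polyploid. Both genotypes carried a construct with a GUS-GFP fusion under the SMR1 promoter, so the nuclei sorted for GFP are those in which that promoter was active. Plants were 5 days old, tips of 0.5 cm were turned into protoplasts, and 120000 GFP-positive nuclei were sorted for each library. The Col-0 group has 2 libraries (replicates 2 and 4) and the smr1 group 3 (replicates 1, 2 and 4), called biological replicates in the series' design text. The kind of mutation in smr1 is not given in the sources used here.

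Plant genomes hold many pseudogenes and remains of transposons, which are mostly kept silent by DNA methylation and by methylation of histone H3, and which are copied along with the rest of the genome when cells replicate their DNA. Methylation is put in place by RNA-directed DNA methylation, in which small RNAs guide a methyltransferase, and is copied after replication by maintenance enzymes such as MET1 and CMT3, while demethylases such as ROS1 remove it. MRD1 stands for mto1 responding down, a gene found through its lower RNA in mto1, a mutant that overaccumulates methionine.

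The annotation used is that of RefSeq for the TAIR10.1 assembly, matched by locus ID. AT5G35935 lies at chr5:14083388-14089891 on the minus strand and is annotated as a pseudogene of a single exon of 6504 bases. AT5G26270, at chr5:9206375-9208136 on the plus strand, codes for an uncharacterized protein and has models of 2 exons (AT5G26270.1) and 3 exons (AT5G26270.2). AT2G05642, at chr2:2098087-2101167 on the minus strand, has 12 exons and is annotated as a nucleic acid-binding protein with an OB-like fold, the fold by which replication protein A and related proteins hold single-stranded DNA or RNA. MRD1 lies at chr1:19963047-19964712 on the minus strand, with a coding sequence in 2 exons in AT1G53480.1 and 1 exon in AT1G53480.2.

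The 250 bases before the annotated start of each locus are printed 5′ to 3′ on its own strand, because the 4 loci were higher in the same libraries and these are the stretches next to where their annotation begins. Capitals mark matches, on either strand, to the TATA box core TATAAA, to the core AACGG bound by MYB factors of mitotic genes, and to the telo box AAACCCTA. The windows lie at chr5:14089892-14090141 (minus strand), chr5:9206125-9206374 (plus), chr2:2101168-2101417 (minus) and chr1:19964713-19964962 (minus), the last inside the span of HEI10 but in none of its exons.
AT5G35935: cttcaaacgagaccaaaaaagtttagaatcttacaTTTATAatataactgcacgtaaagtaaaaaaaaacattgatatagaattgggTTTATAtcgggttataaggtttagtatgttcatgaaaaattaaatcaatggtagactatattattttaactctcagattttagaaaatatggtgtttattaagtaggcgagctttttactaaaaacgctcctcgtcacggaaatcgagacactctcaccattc
AT5G26270: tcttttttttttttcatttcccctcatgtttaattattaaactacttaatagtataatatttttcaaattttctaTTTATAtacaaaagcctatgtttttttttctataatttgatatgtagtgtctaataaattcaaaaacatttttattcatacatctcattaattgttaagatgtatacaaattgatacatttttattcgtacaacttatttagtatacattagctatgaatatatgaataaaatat
AT2G05642: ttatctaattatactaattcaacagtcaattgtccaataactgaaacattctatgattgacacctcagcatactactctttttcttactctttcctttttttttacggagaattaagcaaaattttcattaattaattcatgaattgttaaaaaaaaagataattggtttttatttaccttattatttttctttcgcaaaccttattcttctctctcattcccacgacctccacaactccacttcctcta
MRD1: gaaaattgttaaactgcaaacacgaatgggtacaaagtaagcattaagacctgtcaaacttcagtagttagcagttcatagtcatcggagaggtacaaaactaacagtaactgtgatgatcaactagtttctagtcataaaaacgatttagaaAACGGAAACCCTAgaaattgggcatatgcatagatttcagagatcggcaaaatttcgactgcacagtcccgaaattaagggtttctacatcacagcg

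No motif searched was shared by all 4 windows. TATAAA was present in the windows of AT5G35935, with 2 matches, and AT5G26270, with 1 match. Each of these reads TTTATA as printed, so TATAAA itself lies on the strand opposite to the locus. On either strand, 45.8% of the 32834 windows of the same length in the genome hold it. The MRD1 window held 1 match each to AACGG (in 20.8% of windows) and AAACCCTA (in 4.75%), which overlap none of each other's bases and stand end to end in the run AACGGAAACCCTA. The window of AT2G05642 held no match to any motif searched, and no member's window held TTTNNCGC (an E2F site, in 6.63% of windows) or TGGGCC (the site II element, in 12.3%). The window of AT5G26270 had a GC content of 18.4%, lower than in all but 0.719% of loci, against 30% for AT5G35935, 28.8% for AT2G05642 and 38.0% for MRD1, with a median of 31.6% over all loci. None of the 4 windows held a stretch of 31 bases found elsewhere in the genome, while 20.0% of all loci and 68.1% of pseudogenes hold such a stretch in theirs.

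Across the series, library totals ran from 24918795 to 26823753 reads, and between 19437 and 19914 loci had at least 10 reads. SMR1 itself had 267 and 577 reads in Col-0 against 154, 127 and 192 in smr1, or 10.96 and 21.6 against 6.02, 4.70 and 7.05 CPM, reads scaled by library size. Every smr1 library was below both Col-0 libraries, and the log2 fold change was -1.46 (SE 0.31, edgeR adjusted p = 0.725, short of the threshold of 0.05), although reads of this gene were still present in smr1. DESeq2 called it lower, at -1.47 with an adjusted p of 0.0115. Root identity genes, the type the labels give, were read in every library at a summed 842 to 1027 CPM over 14 of 14 genes. In bulk libraries, fewer cells with a transcript and less RNA per cell cannot be told apart.

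AT5G35935, the pseudogene, had 46 and 40 reads in Col-0 replicates 2 and 4 and 397, 478 and 518 reads in smr1 replicates 1, 2 and 4. In CPM these were 1.89 and 1.499 against 15.5, 17.7 and 19.0, with means of 1.69 ± 0.275 (SD, n = 2) and 17.4 ± 1.77 (SD, n = 3). All 3 smr1 libraries stood far above both Col-0 libraries and close to each other, 10.3-fold higher on average. The log2 fold change from edgeR was 3.36 (SE 0.20). In TPM, which scales reads by both model length and library, AT5G35935 stood at 0.186 and 0.151 in Col-0 and 1.64, 1.85 and 1.96 in smr1, so even in smr1 it was a weakly read locus. Its TPM was above that of 12.6% and 11.7% of the loci with any read in the 2 Col-0 libraries and of 35.8% to 39.8% in the smr1 libraries.

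AT2G05642, the OB-like gene, was the only member with no read at all in Col-0. Its reads were 0 in each library of Col-0, and 75.9, 67.8 and 63.0 in smr1 replicates 1, 2 and 4. AT2G05642.1 is its only model, so the fractions came from reads shared with models of other loci. The smr1 level was 2.97, 2.52 and 2.31 CPM, a mean of 2.60 ± 0.336 (SD, n = 3). A count of 0 allows up to 3 reads in each Col-0 library, a mean of 0.118 CPM. Against that floor the locus was at least 22.1-fold higher in smr1. This bound covers counting error only and takes the division of shared reads between loci as given. In TPM it stood at 0 in both Col-0 libraries and at 1.40, 1.17 and 1.06 in smr1.

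AT5G26270, the uncharacterized gene, was the most strongly read of the 4. It had 130 and 167 reads in Col-0 against 525, 528 and 621 in smr1, or 5.34 and 6.26 against 20.5, 19.5 and 22.8 CPM. The groups did not overlap, and the 3 smr1 libraries differed little, with a Col-0 mean of 5.80 ± 0.651 CPM (SD, n = 2) and an smr1 mean of 20.96 ± 1.69 (SD, n = 3), a 3.61-fold difference and a log2 fold change of 1.85 (SE 0.16). Its TPM of 5.12 and 7.80 in Col-0 was above that of 52.9% and 60.5% of the loci with any read, and its 26.9 to 30.8 TPM in smr1 above 79.1% to 81.4% of them.

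MRD1 had 20 and 30 reads in Col-0 against 92, 106 and 142 in smr1. These were 0.821 and 1.12 CPM against 3.596, 3.92 and 5.22 CPM, with means of 0.973 ± 0.214 (SD, n = 2) and 4.24 ± 0.858 (SD, n = 3), 4.36-fold apart, and a log2 fold change of 2.12 (SE 0.29). All smr1 libraries were above those of Col-0, and smr1 replicate 4 was the highest. In TPM, MRD1 stood at 1.99 and 2.89 in Col-0, above 39.4% and 45.4% of the loci with any read, and at 8.31 to 8.94 in smr1, above 60.4% to 62.2%.

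The order of the levels per length was the same in both genotypes. In smr1, AT5G26270 led with a mean of 28.4 ± 2.15 TPM (SD, n = 3), followed by MRD1 with 8.70 ± 0.340, AT5G35935 with 1.82 ± 0.161 and AT2G05642 with 1.21 ± 0.175, and no neighbours in that order overlapped between libraries. In Col-0 the means were 6.46 ± 1.90 (SD, n = 2), 2.44 ± 0.635, 0.169 ± 0.0244 and 0, again with no overlap. These TPM values sum the models of a locus.

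**Figure D1:**
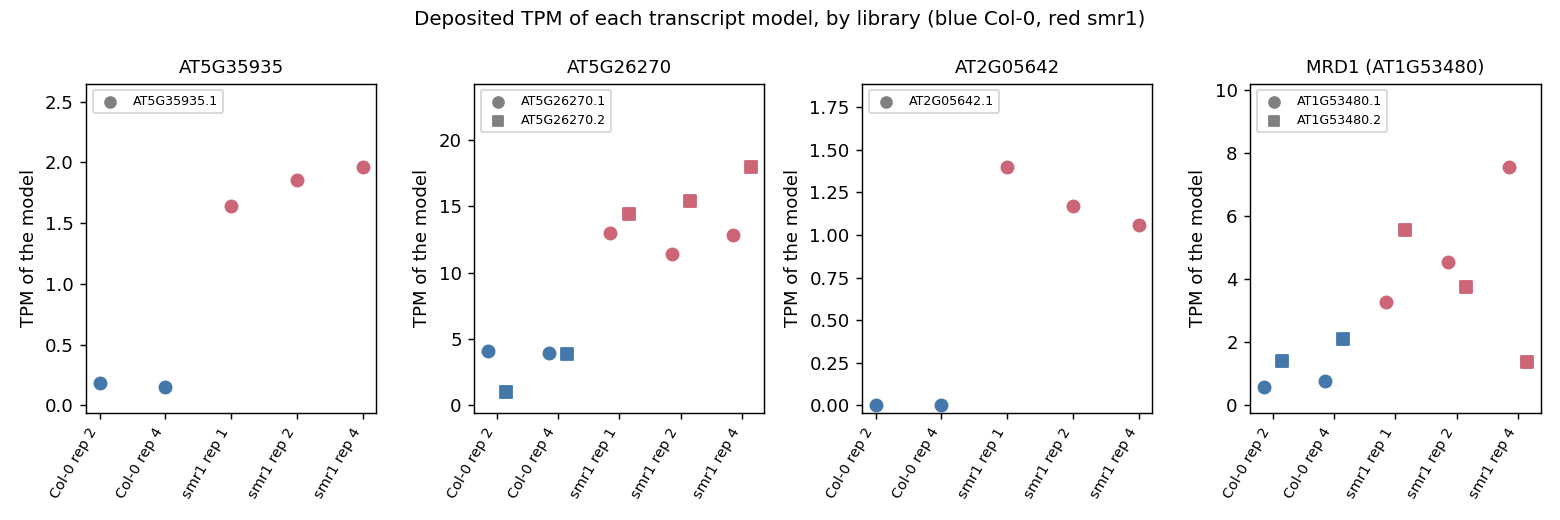
Deposited TPM of each transcript model (y axis, linear, a separate scale for each locus) in each library (x axis), with Col-0 in blue and smr1 in red; each point is a single library. The smr1 points lie above both Col-0 points for every model except AT1G53480.2, which in smr1 replicate 4 has 1.37 TPM against 1.40 and 2.11 in Col-0.

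The division of reads between models differed between libraries. AT5G26270.1, which codes over 918 bases, had 118 and 121 reads in Col-0 against 368, 347 and 402 in smr1. The shorter AT5G26270.2, of 459 bases, had 11.5 and 45.7 reads in Col-0 against 157, 181 and 219 in smr1. Both models were higher in every smr1 library, and AT5G26270.2 took 8.86% and 27.4% of the reads of the locus in Col-0 against 29.8% to 35.2% in smr1.

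For MRD1 only the longer model separated the genotypes. AT1G53480.1, of 582 bases, had 9.48 and 13.2 reads in Col-0 against 51.2, 76.2 and 131 in smr1, and its TPM of 0.596 and 0.782 compared with 3.30, 4.56 and 7.57. AT1G53480.2, of 363 bases, had 10.5 and 16.8 reads in Col-0 against 40.8, 29.8 and 11.3 in smr1, so smr1 replicate 4 fell between the Col-0 libraries in reads. The share of the locus given to AT1G53480.1 was 47.4% and 44.1% in Col-0 and 55.6%, 71.9% and 92.0% in smr1. No base of the coding sequence of AT5G26270.2 or AT1G53480.2 is outside that of the longer model of its locus. In AT5G26270.2, 1.17% of the stretches of 31 bases lie over a splice junction, and in AT1G53480.2 none does. These shares are therefore estimates that rest mostly on the stretches and junctions of the longer model, and the sums over models are the firmer values.

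A stretch that does mark AT1G53480.1 is its first coding exon, at chr1:19964605-19964712 (minus strand). It is shown because it is coding sequence of MRD1 that no other gene's exon covers.
AT1G53480.1 first coding exon: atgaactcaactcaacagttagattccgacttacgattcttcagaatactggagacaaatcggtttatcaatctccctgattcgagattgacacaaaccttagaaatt

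MRD1 shares its place with genes on the other strand. HEI10, which encodes a ubiquitin ligase-like protein known for its part in meiotic crossovers, overlaps the span of MRD1 over 1446 bases. Exons of HEI10 cover 474 of the 582 bases of the MRD1 coding sequence. These are all of AT1G53480.2 and all but the first coding exon of AT1G53480.1. No coding base of either gene lies on a coding base of the other. The long non-coding RNA AT1G07887, not analysed here, also covers 474 bases of the MRD1 coding sequence. The library kit named in the labels keeps strand, but the strand setting of the quantification is not given in the sources used here, and without it reads of the 2 strands cannot be told apart. HEI10 had 56 and 48 reads in Col-0 against 79, 96 and 101 in smr1. Its means were 2.05 ± 0.354 CPM (SD, n = 2) and 3.45 ± 0.324 (SD, n = 3), smr1 stood entirely above Col-0, and the log2 fold change was 0.75 (SE 0.22, edgeR adjusted p = 0.725), which did not pass the threshold of 0.05. The part of this overlap in the MRD1 values, the sums over models included, was not tested.

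AT2G05642 was the member with the most sequence held elsewhere in the genome. A copy of 624 bases with 99.2% identity lies at chr3:22503366-22503989, across the genes AT3G60910 and AT3G60920, and holds 385 bases of the AT2G05642 coding sequence with 5 mismatches. The coding exon at chr2:2098270-2098453 (minus strand) and its copy at chr3:22503366-22503549 (minus strand) are shown because reads have only the 3 bases in capitals by which to be told apart there.
AT2G05642 exon: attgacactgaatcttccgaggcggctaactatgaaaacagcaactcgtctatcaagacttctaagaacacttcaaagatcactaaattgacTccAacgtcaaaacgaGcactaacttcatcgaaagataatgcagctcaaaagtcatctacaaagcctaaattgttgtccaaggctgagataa
chromosome 3 copy: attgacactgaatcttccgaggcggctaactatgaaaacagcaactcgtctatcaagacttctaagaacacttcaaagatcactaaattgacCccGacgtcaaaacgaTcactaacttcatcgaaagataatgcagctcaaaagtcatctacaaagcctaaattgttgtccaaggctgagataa

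At the loci of the copy the groups overlapped in CPM. AT3G60920, whose coding sequence lies partly in the copy, had 5 and 5 reads in Col-0 against 3.05, 10.2 and 3 in smr1. Its counts were fractional in smr1 replicates 1 and 2, as were those of AT2G05642. The part of this division of reads in the Col-0 counts of AT2G05642 was not tested. AT3G60910, which has no coding base in the copy, had 454 and 417 reads in Col-0 against 474, 537 and 618 in smr1, for a log2 fold change of 0.25 (SE 0.15, edgeR adjusted p = 0.755). Of the 1569 stretches of 31 bases in the AT2G05642 model, 11.3% occur elsewhere in the genome, so most of the model can be told from its copy.

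The other members held less repeated sequence. In the AT5G35935 model 0.958% of the stretches of 31 bases occur elsewhere, more than in 68.6% of all loci. The median over the spans of RefSeq pseudogenes is 17.4%, and 83.8% of them, AT5G35935 included, contain at least 1 such stretch. The only copy of AT5G35935 of at least 100 bases and 90% identity is a stretch of 109 bases at chr5:14083274-14083382, just beyond its own 3′ end. The AT5G26270 models had no repeated stretch and no such copy. MRD1 had copies of 558 bases with 91.9% identity at chr1:10775742-10776296, where RefSeq places the long non-coding RNAs AT1G06327 and AT1G06333, and of 220 bases with 93.2% identity at chr2:2331617-2331835.

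The surroundings of the 4 loci differed in their share of pseudogenes. Within 100 kb to each side, pseudogenes made up 22 of 44 loci (50%) around AT5G35935 and 25 of 47 (53.2%) around AT2G05642, above the share found around 88.6% and 89.3% of all loci. Around AT5G26270 they were 8 of 50 (16%), above the share found around 79.8% of all loci. Around MRD1 they were 1 of 60 (1.67%), above the share found around 24.4%. Over all loci matched to RefSeq the share was 14.7%, or 4837 of 32835.

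In the comparison over all loci, which used 20151 loci that passed the expression filter, edgeR called 1 locus higher in smr1 (0.00496% of those tested) and 0 lower (0.0%). The locus called was AT5G35935, 1 of the 4 members, all of which passed the filter, and since the members were chosen on this contrast nothing is read from that count. With any single library left out, edgeR called 0. At an unadjusted p under 0.05 the same test had 798 loci higher and 583 lower. DESeq2 called 30 of 17800 loci higher (0.169%) and 11 lower (0.0618%), among the higher ones all 4 members, while limma voom called 0. All 4 members had every library of smr1 higher than each of Col-0 (smr1 entirely above), an order found in 13.7% of the loci tested, with the reverse order in 10.1%. Because the members were chosen on this contrast, nothing is read from their DESeq2 calls or from their order either. The median log2 fold change of all tested loci was 0.0065.

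**Figure D2:**
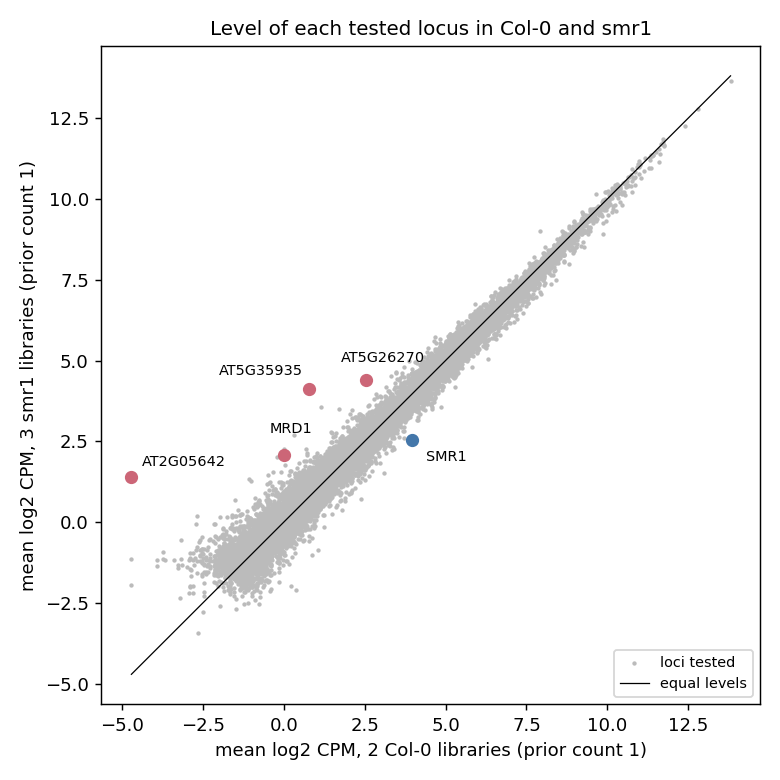
Mean log2 CPM (prior count 1) of each of the 20151 tested loci in the 2 Col-0 libraries (x axis) and the 3 smr1 libraries (y axis), with the members in red, SMR1 in blue and a line of equal levels. All 4 members lie above the line, AT2G05642 at the far left where a locus has no read in Col-0, and SMR1 lies below it.

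Being off in one genotype and on in the other was rare. With off taken as at most 3 reads in every library of a genotype and on as at least 30 in every library of the other, AT2G05642 was the only locus on in smr1 only, and 0 loci were on in Col-0 only. The same pattern between libraries of a single genotype, off in one and on in another, was seen for 5 loci in Col-0 and 8 in smr1, where each side is a single library. AT2G05642 was chosen on the contrast between the genotypes, so nothing is read from its being the locus found.

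The loci next to the members were not used to choose them. Of the 24 loci up to 3 places away on each side, 18 were measured, 10 passed the filter and 0 were called by edgeR or by DESeq2. Of the 10, 2 had an unadjusted edgeR p under 0.05, as had 1381 of all 20151 loci tested. The lowest edgeR adjusted p was 0.725 and the median log2 fold change 0.08. Among the 10, smr1 stood entirely above Col-0 in 2, AT5G26280 and HEI10, and entirely below in 1, AT2G05632. The 13.7% and 10.1% of all loci in those orders are the background.

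The loci beside AT5G35935 differed among themselves. AT5G35940, 682 bases beyond its start, had 2779 and 1475 reads in Col-0 against 1274, 1739 and 1764 in smr1, for a log2 fold change of -0.51 (SE 0.29) that came to 0.10 when Col-0 replicate 2 was left out and -0.94 when replicate 4 was. AT5G35930 had a log2 fold change of 0.02 (SE 0.17), which lay between -0.17 and 0.22 as single libraries were left out. AT5G35932, a pseudogene on the opposite strand 5020 bases away, was too low to be tested, with 0 and 2 reads in Col-0 against 12, 10 and 10 in smr1. That is a ratio of 10.2 in CPM, with an exact 95% counting interval of 2.61 to 88.1, and the groups did not overlap.

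Around AT2G05642 almost nothing was read. AT2G05645, 329 bases from its start, had 1 read in smr1 replicate 4 and none in the other libraries, AT2G05647 had none at all, and AT2G05660 had 1 read in each of 2 libraries. AT2G05640, a pseudogene 970 bases beyond its other end, had 2 and 5 reads in Col-0 against 17, 5 and 6 in smr1, so the groups met at 5. AT2G05635 had 1 and 0 reads in Col-0 against 8, 11 and 4.30 in smr1, a ratio of 14.7 with an exact 95% counting interval of 2.39 to 606, and AT2G05632 had 13 and 19 against 8, 9 and 11, for a log2 fold change of -0.83 (SE 0.39).

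The neighbours of AT5G26270 and MRD1 were read at very different levels. AT5G26280, 436 bases beyond AT5G26270, had 3466 and 3277 reads in Col-0 against 4128, 4499 and 4112 in smr1, for a log2 fold change of 0.27 (SE 0.11). AT5G26260 had a log2 fold change of 0.21 (SE 0.15) at 48216 to 70361 reads a library, and AT5G26262 had at most 11 reads. Beside MRD1, MSL4, a mechanosensitive channel-like gene, had 4839 and 1656 reads in Col-0 against 1477, 3170 and 1855 in smr1. The log2 fold change of MSL4 was -0.68 (SE 0.50) and came to 0.38 when Col-0 replicate 2 was left out and -1.30 when replicate 4 was; without smr1 replicate 2 it was -1.05. MUM4, which encodes an enzyme of rhamnose synthesis for seed coat mucilage, had a log2 fold change of 0.05 (SE 0.11), and AT1G53460 one of 0.43 (SE 0.33).

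**Figure D3:**
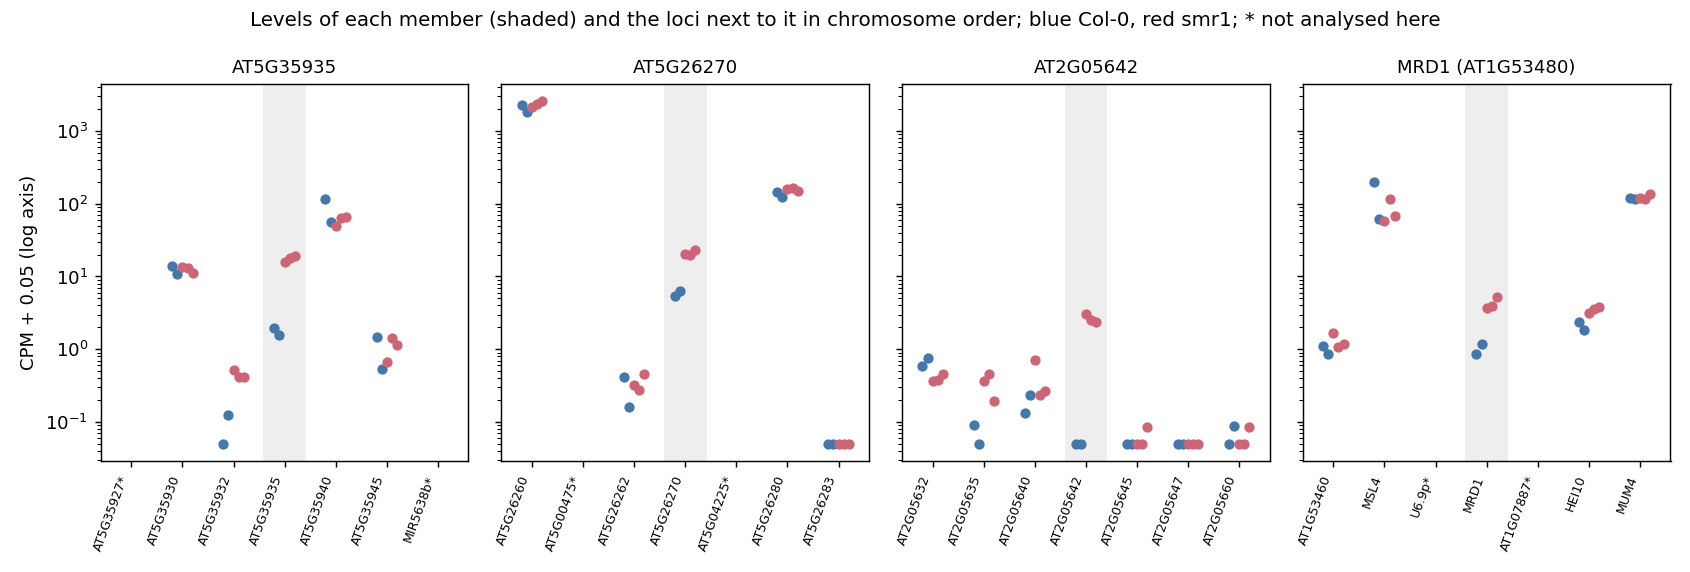
CPM plus 0.05 on a log axis (y) for each member (shaded) and up to 3 loci on each side in chromosome order (x), with Col-0 libraries in blue and smr1 libraries in red; loci with an asterisk were not analysed here. The members were chosen for their step between blue and red; the tested loci beside them have log2 fold changes between -0.83 and 0.75, and 2 loci too low to be tested, AT5G35932 and AT2G05635, also have every red point above both blue points.

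The loci whose pattern over the 5 libraries was most like each member were found by the smallest Euclidean distance in centred log2 CPM among the tested loci. For AT5G35935 these were NOP10, an H/ACA small nucleolar ribonucleoprotein subunit, at a distance of 1.08, AT3G15240 at 1.26 and FIB2, a fibrillarin, at 1.29. NOP10 had 14 and 9 reads in Col-0 against 55, 76 and 69 in smr1, and FIB2 44 and 21 against 160, 135 and 236. For MRD1 they were CDKB1;2, a mitotic cyclin-dependent kinase, at 0.264, AT1G63100 at 0.393 and AT5G26270 at 0.398. CDKB1;2 had 5 and 6 reads in Col-0 against 22, 28 and 38 in smr1.

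For AT5G26270 the most alike were AT1G63100 at 0.286, AT3G54060 at 0.301 and MRD1 at 0.398. AT1G63100 had 3 and 4 reads in Col-0 against 17, 19 and 19 in smr1. AT2G05642 had no close match, the least distant being AT5G35935 at 3.07, AT3G15910 at 3.85 and AT2G01422 at 3.99. The difference between the genotypes, on which the members were chosen, is part of each distance. Nothing is therefore read from members lying near each other. With 5 libraries these distances describe likeness over the same few samples and no more.

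Gene lists for the pathways that act on silent loci were given beside the same counts over all loci. Over all loci, 10327 of the 20151 tested had a positive log2 fold change. Of 19 genes that maintain DNA methylation and silencing, all tested, 14 had a positive log2 fold change. Among the 19, 9 had smr1 entirely above Col-0 (47.4%, with 13.7% over all loci) and 1 had the reverse (5.26%, with 10.1% over all loci). The median log2 fold change was 0.18, against 0.0065 over all loci, and came to 0.06 when smr1 replicate 4 was left out, 0.29 when smr1 replicate 2 was and 0.39 when Col-0 replicate 2 was. Neither edgeR nor DESeq2 called any of them. At an unadjusted edgeR p under 0.05 were 7, all higher in smr1, beside 798 higher and 583 lower of all 20151 loci tested.

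Among these maintenance genes, CMT3, the chromomethylase of CHG sites, had a Col-0 mean of 10.7 ± 0.942 CPM (SD, n = 2) and an smr1 mean of 20.1 ± 4.70 (SD, n = 3), for a log2 fold change of 0.91 (SE 0.21). VIM3, of the family that brings MET1 to hemimethylated DNA, had 0.94 (SE 0.23), and SUVH4, the histone methyltransferase that works with CMT3, had 1.01 (SE 0.26). All 3 had an edgeR adjusted p of 0.725.

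Of 23 genes of RNA-directed DNA methylation, 21 were tested and 17 had a positive log2 fold change. Among the 21, 4 had smr1 entirely above Col-0 (19.0%, with 13.7% over all loci) and 1 had the reverse (4.76%, with 10.1% over all loci). The median was 0.15, or 0.094 without Col-0 replicate 4. RDM4, known for its link to RNA polymerases, had a log2 fold change of 0.76 (SE 0.34), KTF1, which binds AGO4 on the nascent transcript, had 0.25 (SE 0.13), and IDN2, a double-stranded RNA binding protein of the pathway, had 0.27 (SE 0.16). Of 10 genes of active demethylation, 9 were tested and 6 had a positive log2 fold change. Among the 9, 1 had smr1 entirely above (11.1%, with 13.7% over all loci) and 0 had the reverse. This list had a median of 0.09, which came to -0.01 when Col-0 replicate 2 was left out and -0.04 when replicate 4 was. Its genes of lowest p were AT3G14890 (ZDP, a DNA phosphatase) with 0.56 (SE 0.24), AT1G20870 (IDM3) with -0.42 (SE 0.26) and AT1G54840 (IDM2) with -0.31 (SE 0.40). None in either list was called by edgeR or DESeq2, and none had an unadjusted edgeR p under 0.05.

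The list of methionine and S-adenosylmethionine synthesis was taken for the origin of the name MRD1. Of its 16 genes, all tested, 11 had a positive log2 fold change. Among the 16, 2 had smr1 entirely above Col-0 (12.5%, with 13.7% over all loci) and 0 had the reverse. The median of 0.15 came to 0.016 without smr1 replicate 4, 0.076 without Col-0 replicate 2 and 0.23 without smr1 replicate 2. MGL, which degrades methionine, had a log2 fold change of 0.26 (SE 0.11), MTO2, threonine synthase, had 0.34 (SE 0.17), and HMT-1, a homocysteine methyltransferase, had -0.28 (SE 0.14). EdgeR and DESeq2 called 0 of the 16, and 1 had an unadjusted edgeR p under 0.05, as had 1381 of all 20151 loci tested.

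Replication protein A subunits, which bind single-stranded DNA through OB folds, were taken for the annotation of AT2G05642. Of the 9 subunits, all tested, 7 had a positive log2 fold change, 5 had smr1 entirely above Col-0 (55.6%, with 13.7% over all loci) and 0 had the reverse, with a median of 0.53 that came to 0.29 without Col-0 replicate 4. RPA70B had 0.69 (SE 0.22), AT3G52630 (RPA3A) 0.92 (SE 0.34) and RPA70D 0.76 (SE 0.30). EdgeR and DESeq2 called 0 of the 9, and 3 had an unadjusted edgeR p under 0.05, as had 1381 of all 20151 loci tested.

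**Figure D4:**
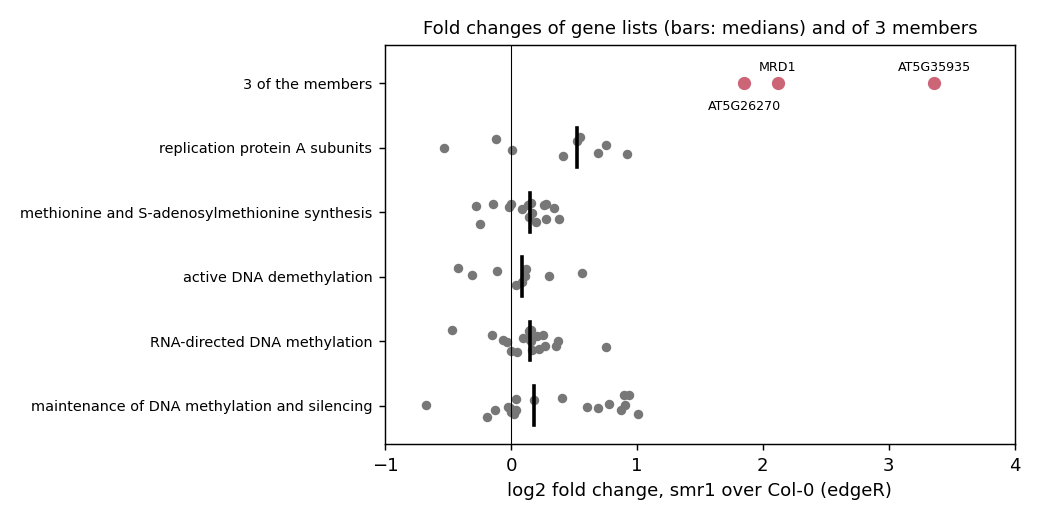
Log2 fold change from edgeR, smr1 over Col-0 (x axis), of each tested gene of 5 lists (grey points, with a black bar at the median) and of 3 members (red points). AT2G05642 is left out because it has no read in Col-0; the 3 members shown, at 1.85, 2.12 and 3.36, were chosen on this contrast, and the lists have medians from 0.09 to 0.53.

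As for the class of AT5G35935, RefSeq marks 4837 measured loci as pseudogenes, of which 3359 had no read in any library and 413 passed the filter. Of those tested, 9.69% had smr1 entirely above Col-0 and 10.7% below; the median log2 fold change was -0.04, and edgeR and DESeq2 each called 1, AT5G35935. Their summed level was 3532 and 3247 CPM in Col-0 and 2885, 3292 and 2758 in smr1, so the groups overlapped.

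Markers of other cell types had lower summed levels than the root identity genes. Over 9 green shoot genes the summed level was 33.6 and 19.7 CPM in Col-0 and 58.0, 42.1 and 9.66 in smr1, lowest in smr1 replicate 4, the smr1 library in which AT5G35935, AT5G26270 and MRD1 were highest and AT2G05642 lowest. Of the 9, 7 passed the filter and 0 were called by edgeR or DESeq2. At an unadjusted edgeR p under 0.05 were 3, as were 1381 of all 20151 loci tested. LHCB1.1 had 4.19 and 2.14 reads in Col-0 against 55.6, 72.9 and 3.17 in smr1 replicates 1, 2 and 4. RBCS1A had 9 and 7 against 80, 108 and 8, and RBCS3B 0 and 0 against 54.8, 30.2 and 0. Only smr1 replicates 1 and 2 were raised in these 3 genes. The median log2 fold change of 0.62 lay between -0.077 and 1.38 as single libraries were left out. It came to 2.95 without the expression filter and 2.96 with DESeq2. Over 8 pollen and sperm genes the summed level was between 3.97 and 4.36 CPM in every library, with 2 of the genes at 0 throughout. The 2 that passed the filter, GEX1 and DUO1, had log2 fold changes of -0.023 (SE 0.20) and 0.11 (SE 0.38). Over 6 seed and embryo genes the summed level was at most 0.220 CPM, with 2 at 0 throughout. Among 14 root identity genes, 6 had smr1 entirely above Col-0 (42.9%, with 13.7% over all loci) and 1 the reverse (7.14%, with 10.1% over all loci), and the median log2 fold change was 0.22, which came to 0.058 without Col-0 replicate 2 and 0.13 without smr1 replicate 4. PLT2 and PLT1, transcription factors of the root stem cell niche, had log2 fold changes of 1.40 (SE 0.50) and 0.84 (SE 0.31), and GL2, of hairless epidermal cells, 0.27 (SE 0.10). EdgeR and DESeq2 called 0 of the 14, and 4 had an unadjusted edgeR p under 0.05, set beside the 1381 of 20151 over all loci. The part of these root genes in the members' values was not tested.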

How the data were processed

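RNA was measured in 5 libraries of sorted root nuclei, 2 Col-0 and 3 smr1. The deposited tables hold expected counts of reads, which can be fractional, for 41671 transcript models, beside a TPM column, per the file headers. The submitters' processing notes name Salmon 0.7.2, CASAVA and TAIR10 but not the role each had, and the settings of the quantification, strand included, were not given in the sources used here. Among 34613 models matched by ID to RefSeq TAIR10.1, 96.5% have exactly the coding length of that annotation, so reads in untranslated regions would mostly go uncounted. Coordinates and sequences are those of RefSeq TAIR10.1, not the build that the notes name. RefSeq marks no class of transposable element genes, so that class was not formed.

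For each locus, the expected counts of its models were added up and rounded. Loci were tested on genotype with edgeR 4.0.16 in R 4.3.3 (filter with a minimum count of 10 and minimum total of 15, TMM factors, robust quasi-likelihood F test, two-sided, 3 residual degrees of freedom), with Benjamini-Hochberg adjustment over 20151 loci at 0.05. CPM values use the TMM factors, and standard errors (SE) come from the F statistic. The code was tested on simulated data. DESeq2 1.42.0 without the filter and limma 3.58.1 (voom) were alternatives, with DESeq2 size factors, no filter, models in place of loci, TPM plus 0.1, a replicate block and each library left out. The deposited TPM values keep no depth and were used for levels per length only. The floor of detection is 3 reads, or 0.112 to 0.120 CPM of the library totals; reads are not independent molecules. Chi-square per degree of freedom between libraries was 14.8 or more, so none was a copy of another. For Col-0 replicate 2 the lowest value, 14.8, was with smr1 replicate 2. For Col-0 replicate 4 it was 17.1, with smr1 replicate 1. The Col-0 libraries stood at 43.8 from each other. Among the smr1 libraries, only replicate 4 was closest to its own genotype, at 21.8 with replicate 1. Likeness over all loci therefore did not mainly follow genotype, and the cause was not tested. P-values set the difference between genotypes against the spread between these libraries, which the tests estimate partly from the other loci. Repeats were counted as stretches of 31 bases, and copies found with BLAST+ 2.17.0 (at least 90% identity over 100 bases).

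The members and lists were chosen with earlier results of these data known. Named beside the members were SMR1, the loci up to 3 places to each side, the 3 loci most like each member (log2 CPM, prior count 1), up to 3 genes per list with the smallest edgeR p, loci on in one genotype only, and near-identical copies.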

Additional observations from a re-analysis of the deposited data

How the results depend on the processing

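The count of loci called higher, 1 with edgeR, was 1 with DESeq2 size factors, 30 with DESeq2, 3 without the expression filter, 0 with limma voom, 0 over transcript models in place of loci, and between 0 and 0 when any single library was left out. The count called lower was 11 with DESeq2 and 0 in the other settings. The labels share only the numbers 2 and 4 between the genotypes, which does not establish pairing. Deviations of libraries with the same number correlated at 0.397 (number 2) and 0.185 (number 4). Those of Col-0 replicate 4 and smr1 replicate 1, with different numbers, correlated at 0.171. With 2 Col-0 libraries, their deviations mirror each other, so the remaining values are these with the sign reversed. With the number as a replicate block, where smr1 replicate 1 stands alone, 2 loci were called higher. With at least 10 reads as on, 5 loci were on in smr1 only, among them the neighbour AT5G35932, and the same pattern between libraries of a single genotype was seen for 241 loci in Col-0 and 350 in smr1. Leaving out a library kept the log2 fold change of AT5G35935 within 3.19 to 3.53, AT5G26270 within 1.74 to 1.96 and MRD1 within 1.91 to 2.36. On the log2 (TPM + 0.1) scale they were 2.84, 2.12 and 1.79, and AT2G05642 had 3.71. By model, AT5G26270.1 had 1.58, AT5G26270.2 2.64, AT1G53480.1 2.89 and AT1G53480.2 0.92. Among the list medians, that of active demethylation came to -0.011 and -0.035 without Col-0 replicates 2 and 4, and that of green shoot genes ranged from -0.077 to 1.38 as single libraries were left out. Among single loci, the directions that reversed were those of neighbours: AT5G35930 came to -0.016 with the replicate block and ranged from -0.17 to 0.22 as single libraries were left out, AT5G35940 from -0.94 to 0.10, AT5G35945 from -0.48 to 1.07, MSL4 from -1.30 to 0.38 and MUM4 from -0.022 to 0.10. The cause was not tested. Depth limits the neighbours of AT2G05642, 3 of which had at most 1 read in any library.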
